A study of Mus musculus with 89 samples.

Results

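The replication-dependent histone genes were taken from the rows of the RNA-seq count table by symbol. The symbol had to start with Hist1, Hist2, Hist3 or Hist4 and go on with h1, h2a, h2b, h3 or h4. Further letters or digits could follow, as in most symbols, or be absent, as in Hist4h4. The rule reads the symbol alone and found 68 of 27179 rows, all of them among the 26276 rows that carry a symbol. By histone type these were 6 H1, 19 H2A, 18 H2B, 12 H3 and 13 H4 genes. By the cluster number in the symbol, 55 belonged to cluster 1, 10 to cluster 2, 2 to cluster 3 and 1 to cluster 4. RefSeq (GRCm38.p6) places cluster 1 on mouse chromosome 13 (chr13:21715711-23934913), apart from Hist1h2al, which lies further along that chromosome (chr13:51200084-51203066) and is listed as a transcribed pseudogene. Cluster 2 lies on chromosome 3 (chr3:96219885-96270192), cluster 3 on chromosome 11 and cluster 4 on chromosome 6.

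The study depleted the histone variant H2A.Z.1 from V6.5 mouse embryonic stem cells, and the RNA-seq comparison asks which transcripts differ after depletion. There were 3 dTAG libraries and 3 control libraries. The cells of both groups carry the genotype H2afz-FKBP-V, a tag on the gene for H2A.Z.1 through which the dTAG molecule directs the protein to degradation, so the controls are tagged too. Both groups grew with LIF, the MEK inhibitor PD0325901 and the GSK3 inhibitor CHIR99021. The sources used here do not give the dose or length of dTAG treatment for the RNA samples, what the controls received, or whether the line is a single clone. The labels do not say that replicates are separate cultures; a p-value here thus measures the spread among these libraries only, and that spread may be technical.

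Replication-dependent histone genes supply new histones while DNA is copied in S phase. H2A, H2B, H3 and H4 form the core around which DNA winds, and H1 binds the linker DNA between cores. Their mRNAs are typically short and end not in a poly(A) tail but in a stem-loop. SLBP binds this stem-loop, and the U7 small nuclear RNP helps to cut the RNA at this end. NPAT, a target of cyclin E and CDK2, switches on transcription of these genes at nuclear bodies that form on the clusters. RefSeq gives 7 members a span of 1000 bases or more, and whether those make other transcripts was not tested. H2A.Z.1 replaces H2A in some nucleosomes; its gene, H2afz, lies outside these clusters and makes a polyadenylated mRNA.

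The libraries differed in depth and in what they held. Total counts were 13214351, 2284068 and 2121183 in dTAG replicates 1, 2 and 3, against 14427884 to 16033011 in the controls. Olfactory and vomeronasal receptor genes (1462 rows), which serve the nose, had a count in 23.5%, 71.5% and 97.0% of rows in dTAG replicates 1, 2 and 3, against 10.9% to 18.2% in the controls. The 9 embryonic stem cell markers summed to 2603, 1560 and 504 CPM (counts per 1000000 counts in rows with a symbol) in dTAG replicates 1, 2 and 3, against 2353 to 2477 CPM in the controls, and none was at 0 in any library. The 6 feeder fibroblast markers summed to 19.6, 88.2 and 279 CPM in the dTAG libraries, with 3, 0 and 0 of them at 0, against 18.0 to 30.0 CPM in the controls, with 1 to 3 at 0. The receptor rows summed to 165, 2447 and 8269 CPM in dTAG replicates 1, 2 and 3, against 52.6 to 62.9 CPM in the controls. By that sum dTAG replicate 1 was also above the controls, though by far less. dTAG replicates 2 and 3 thus stood apart from the other 4 libraries, and the main results below are given per library and with and without them.

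Histone transcripts made up a slightly larger part of the RNA counts in dTAG replicate 1 than in the controls, a smaller part in dTAG replicate 2 and a far smaller part in dTAG replicate 3. The 68 genes took 2.57% (Wilson 95% interval 2.56% to 2.58%), 1.77% (1.75% to 1.79%) and 0.190% (0.184% to 0.196%) of the counts in dTAG replicates 1, 2 and 3, and 2.38%, 2.38% and 2.45% in control replicates 1, 2 and 3. The mean was 1.51% ± 1.21 in dTAG libraries and 2.40% ± 0.0394 in control libraries (SD, n = 3 each). Against the control mean, the shares in dTAG replicates 1, 2 and 3 were 1.07, 0.735 and 0.0790 times as large. The groups overlapped, with dTAG replicate 1 above and dTAG replicates 2 and 3 below all controls. The difference of the means was -0.894 percentage points, became -0.235 without dTAG replicate 3 and -1.42 without dTAG replicate 1, and changed sign to 0.167 with dTAG replicate 1 as the only dTAG library. These intervals cover counting error only. In bulk RNA, fewer cells in S phase, less histone RNA per cell and a difference in what else a library held cannot be told apart.

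**Figure D1:**
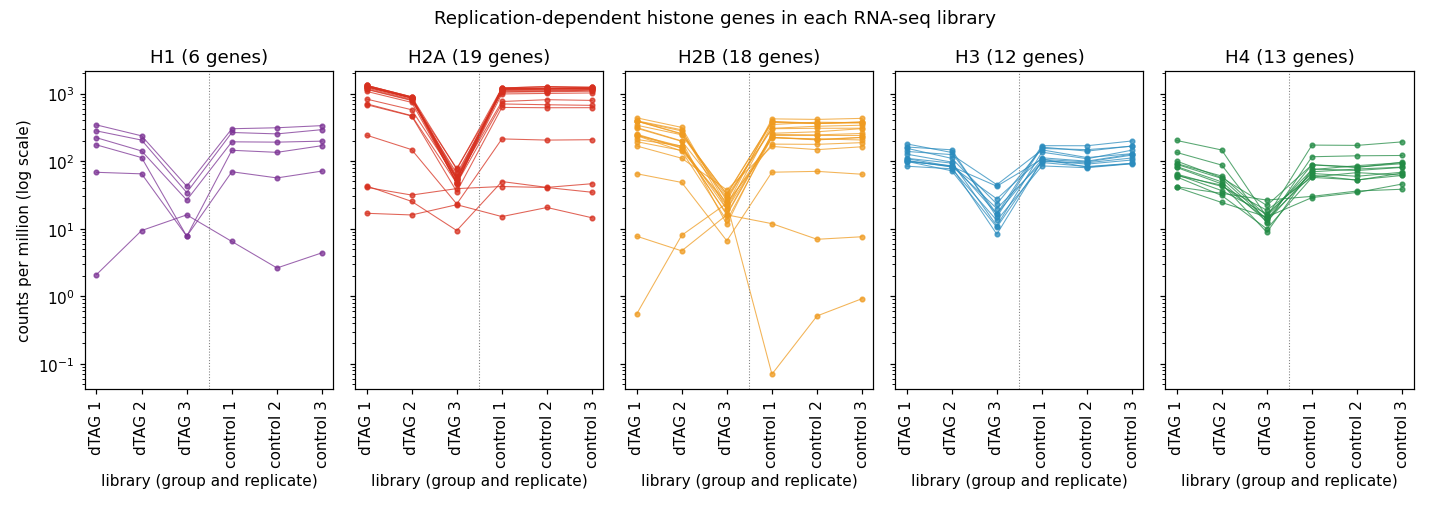
CPM (log scale) of each of the 68 histone genes in the 3 dTAG and 3 control libraries, with a panel per histone type, a point per gene and library, and lines joining the points of 1 gene. Most genes stand at control level in dTAG replicate 1 and lowest in dTAG replicate 3, where counts of all 68 lie between 12 and 141, while Hist2h2be (lowest H2B line) and Hist1h1t (lowest H1 line) run the other way.

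Histone genes are near copies of one another, which bears on every value for a single gene. Whether reads that match several copies were counted for each copy, split between them or dropped is not given, and neither is the use of strand. Of 445 pairs of same-type genes (among 65 genes with a control mean of at least 10 CPM), 2 had counts in every one of the 6 libraries that differed by less than their counting error (the square root of the summed counts), and 5 did in 5 or more libraries. Of 1635 pairs of different types, 0 did so in 5 or more. Hist1h2ao and Hist1h2ap differed by 34, 2 and 2 counts in dTAG replicates 1, 2 and 3 and by 22, 51 and 41 counts in the controls, where the counting error was 181, 60.7 and 13.9 counts in the dTAG libraries and 184, 192 and 183 counts in the controls. Hist1h2bq and Hist1h2br, an H2B pair, differed by 4, 10 and 1 counts in dTAG replicates 1, 2 and 3 and by 86, 50 and 2 counts in the controls, also within counting error in every library. Whether such pairs share reads was not tested, so they may not be independent measurements, sums over the family may count a read more than once, and levels of single copies are uncertain. A further 5 genes (Hist3h2ba, Hist3h2a, Hist1h2be, Hist1h2ba and Hist1h2aa) overlap another RefSeq gene, whose reads cannot be told apart from theirs.

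The upstream sequences show how close these copies are. RefSeq windows of 250 bases before the transcription start were found for 62 of the 68 genes. Those of Hist1h2bq and Hist1h2br are the same in all 250 bases, and the longest identical run was 249 bases between Hist1h4m and Hist1h4n, 231 between Hist2h3c1 and Hist2h3c2, 169 between Hist2h2aa1 and Hist2h2aa2 and 150 between Hist1h2ao and Hist1h2ap. The median over 399 same-type pairs was 9 bases, so most members of a type do not share long upstream runs. The 3 windows printed here show an H2B pair and an H2A pair of abundant near copies: the common H2B sequence, given for Hist1h2br (GRCm38.p6, chr13:21833493-21833742, plus strand), and the H2A pair Hist2h2aa1 (chr3:96245247-96245496, plus strand) and Hist2h2aa2 (chr3:96240375-96240624, minus strand). Each runs 5′ to 3′ and ends at the base before the start, and capitals mark the CCAAT box on either strand.
Hist1h2br: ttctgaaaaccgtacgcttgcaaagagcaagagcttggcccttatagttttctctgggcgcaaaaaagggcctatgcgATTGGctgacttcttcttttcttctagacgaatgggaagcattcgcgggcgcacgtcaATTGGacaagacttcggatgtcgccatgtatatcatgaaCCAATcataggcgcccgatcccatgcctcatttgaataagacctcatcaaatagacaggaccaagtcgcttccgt
Hist2h2aa1: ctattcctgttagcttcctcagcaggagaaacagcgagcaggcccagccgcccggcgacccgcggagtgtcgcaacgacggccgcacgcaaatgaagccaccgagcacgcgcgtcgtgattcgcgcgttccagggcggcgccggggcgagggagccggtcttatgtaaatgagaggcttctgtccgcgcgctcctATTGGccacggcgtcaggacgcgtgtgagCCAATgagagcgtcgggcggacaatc
Hist2h2aa2: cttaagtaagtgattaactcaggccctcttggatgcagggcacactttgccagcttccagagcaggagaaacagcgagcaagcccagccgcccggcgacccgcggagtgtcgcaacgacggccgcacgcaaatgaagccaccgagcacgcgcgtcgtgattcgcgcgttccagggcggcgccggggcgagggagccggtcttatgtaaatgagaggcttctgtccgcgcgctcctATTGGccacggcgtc

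The promoter motifs differed by histone type. CCAAT, the binding site of NF-Y, was found on either strand in 51 of 62 histone windows (82.3%), against 33.8% of all 32851 RefSeq windows of the same length. It was in 6 of 6 H1, 18 of 18 H2A, 16 of 16 H2B and 8 of 10 H3 windows, but in 3 of 12 H4 windows. The octamer ATTTGCAT, bound by Oct-1, was in 7 of 18 H2A and 6 of 16 H2B windows and in 0 H1, H3 and H4 windows, against 1.60% of all windows. GGTCCG, a core of the H4-specific element, was in 9 of 12 H4 windows, 1 H2B window and 1 H3 window, against 6.72% of all windows. TATAAA was in 29 of 62 histone windows (46.8%), against 12.4% of all. No motif lies within another, and each was searched on both strands. A match describes letters, not binding. Among the genes with a window, an H2A and an H2B gene start head to head in 10 places, 164 to 281 bases apart (median 204.5). Their windows overlap there, and a motif in the overlap is counted for both. Pairs that include a gene without a window were not counted.

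The windows of the most abundant H1, H3 and H4 genes, and of an abundant H2B gene that holds an octamer, show these motifs in place. They are Hist1h1c (chr13:23738557-23738806), Hist1h2bb (chr13:23746484-23746733), Hist1h3b (chr13:23752095-23752344) and Hist1h4d (chr13:23581318-23581567), all GRCm38.p6 and plus strand, printed 5′ to 3′. Capitals mark the motifs just named, on either strand.
Hist1h1c: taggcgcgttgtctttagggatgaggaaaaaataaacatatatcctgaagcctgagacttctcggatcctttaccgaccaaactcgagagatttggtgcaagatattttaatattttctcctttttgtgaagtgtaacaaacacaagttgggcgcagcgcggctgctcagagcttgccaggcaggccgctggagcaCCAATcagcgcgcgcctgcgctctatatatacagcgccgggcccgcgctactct
Hist1h2bb: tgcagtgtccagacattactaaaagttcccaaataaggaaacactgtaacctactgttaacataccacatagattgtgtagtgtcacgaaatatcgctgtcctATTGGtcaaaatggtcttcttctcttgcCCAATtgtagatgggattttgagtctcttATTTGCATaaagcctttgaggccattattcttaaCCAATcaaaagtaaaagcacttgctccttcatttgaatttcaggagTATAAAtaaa
Hist1h3b: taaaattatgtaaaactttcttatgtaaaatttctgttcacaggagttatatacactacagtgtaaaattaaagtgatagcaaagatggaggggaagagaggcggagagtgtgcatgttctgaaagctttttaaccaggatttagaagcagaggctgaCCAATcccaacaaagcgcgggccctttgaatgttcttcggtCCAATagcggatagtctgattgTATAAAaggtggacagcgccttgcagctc
Hist1h4d: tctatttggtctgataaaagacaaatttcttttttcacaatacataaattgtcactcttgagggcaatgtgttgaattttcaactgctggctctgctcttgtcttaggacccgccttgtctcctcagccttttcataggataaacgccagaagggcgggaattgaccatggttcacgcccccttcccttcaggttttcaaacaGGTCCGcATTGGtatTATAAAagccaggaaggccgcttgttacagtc

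Linker histone genes stood near control levels in dTAG replicate 1. The 5 somatic H1 genes all stood at or above their control mean there: their lowest log2 ratio of CPM to the control mean was 0.05 and their highest 0.22. Hist1h1c, the most abundant, had 343, 236 and 42.5 CPM in dTAG replicates 1, 2 and 3 and 301, 311 and 335 CPM in the controls. Its dTAG libraries lay on both sides of the controls, with replicate 1 highest of all 6 and replicate 3 lowest. Over all 6 libraries its log2 fold change was -0.94 (SE 1.05, adjusted p = 0.527 by the quasi-likelihood test of edgeR, Benjamini-Hochberg over all genes), and with dTAG replicate 1 as the only dTAG library it was 0.03 (SE 0.11). Hist1h1e had 280, 205 and 34.2 CPM in dTAG replicates 1, 2 and 3 and 265, 253 and 292 CPM in the controls, so that replicate 1 lay within them. Hist1h1d had 222, 141 and 26.5 CPM in dTAG libraries and 193, 191 and 197 CPM in the controls. Hist1h1a had 174, 113 and 7.72 CPM in dTAG libraries and 144, 135 and 169 CPM in the controls, with one of the higher ratios of dTAG replicate 1 to the control mean (1.16). In both genes dTAG replicate 1 lay above and the other dTAG libraries below all controls. Hist1h1t, the linker histone of the testis, had the lowest control level of the H1 genes and ran the other way, with 2.09, 9.38 and 16 CPM in dTAG replicates 1, 2 and 3 and 6.46, 2.62 and 4.40 CPM in the controls. It was the only member below all controls in dTAG replicate 1 (27 counts), and its log2 fold change over 6 libraries was -0.03 (SE 0.68, edgeR adjusted p = 0.973), whose sign turned when control replicate 1 or dTAG replicate 1 was left out, at 0.04 and 0.05.

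H2A genes carried most of the histone counts. They held 67.9%, 67.2% and 48.4% of the members' counts in dTAG replicates 1, 2 and 3, and 67.4% ± 0.844 (SD, n = 3) in the controls. Of the 19 genes, 12 had a control mean between 1002 and 1237 CPM, a 1.23-fold span, and these 12 alone made up 57.4% of the members' control CPM, while the other 7 were lower. Hist2h2aa1 had 1317, 895 and 75.6 CPM in dTAG replicates 1, 2 and 3 and 1208, 1270 and 1232 CPM in the controls, and its near copy Hist2h2aa2 had 1316, 891 and 59.6 CPM in dTAG libraries and 1206, 1265 and 1232 CPM in the controls. For both, dTAG replicate 1 was the highest library, dTAG replicates 2 and 3 were the lowest, and the groups overlapped. The log2 fold change of Hist2h2aa1 was -0.998 over 6 libraries (SE 1.49, edgeR adjusted p = 0.627) and 0.01 (SE 0.08) with dTAG replicate 1 alone. Hist1h2ai had 1322, 886 and 47.5 CPM in dTAG replicates 1, 2 and 3 and 1198, 1214 and 1236 CPM in the controls. Hist1h2ap had 1269, 865 and 54.1 CPM in dTAG libraries and 1185, 1176 and 1192 CPM in the controls. Across H2A genes the median log2 ratio to the control mean was 0.10, -0.44 and -4.13 in dTAG replicates 1, 2 and 3, the lowest median of any type in replicate 3. Hist1h2an stood further above its controls than the H2A genes of highest level, with 242, 148 and 23.2 CPM in dTAG libraries and 213, 204 and 207 CPM in the controls (1.16 times the control mean in dTAG replicate 1).

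H2B genes, the partners of H2A in the nucleosome, followed the same order of libraries at lower levels. They held 17.8%, 17.7% and 20.9% of the members' counts in dTAG replicates 1, 2 and 3, against 18.2% ± 0.126 (SD, n = 3) in the controls. Hist1h2bk had 437, 315 and 22.1 CPM in dTAG replicates 1, 2 and 3 and 422, 414 and 429 CPM in the controls. Hist1h2bb, whose window holds an octamer, had 396, 290 and 19.3 CPM in dTAG libraries and 347, 376 and 370 CPM in the controls. In both genes dTAG replicate 1 was above and dTAG replicates 2 and 3 below every control. The twin genes Hist1h2bq and Hist1h2br read alike: Hist1h2bq had 392, 251 and 32.6 CPM in dTAG libraries and 387, 363 and 379 CPM in the controls, and Hist1h2br had 391, 256 and 32.0 CPM in dTAG libraries and 381, 360 and 379 CPM in the controls. The log2 fold change of Hist1h2bk was -1.01 over 6 libraries (SE 1.22, edgeR adjusted p = 0.553) and -0.03 (SE 0.10) with dTAG replicate 1 alone. The median log2 ratio to the control mean over H2B genes was 0.07, -0.50 and -3.50 in dTAG replicates 1, 2 and 3.

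By median log2 ratio, H3 genes lay closest to the controls in dTAG replicate 1. There 11 of 12 were within the range of the 3 controls, where 34.2% of all genes were above it and 16.9% below. The controls also spread more for H3 relative to its level. Summed control CPM were 1441 ± 125 for H3 and 16207 ± 158 for H2A (SD, n = 3). Hist1h3b had 180, 134 and 16.6 CPM in dTAG replicates 1, 2 and 3 and 169, 169 and 199 CPM in the controls. Hist1h3h had 162, 147 and 14.9 CPM in dTAG libraries and 161, 140 and 168 CPM in the controls, and was within the controls in dTAG replicates 1 and 2. Hist1h3e had 155, 110 and 23.2 CPM in dTAG libraries and 154, 148 and 166 CPM in the controls. Replicate 3 was far below the controls in each of the 3 genes. Hist1h3f, one of the lowest ratios in dTAG replicate 1 (0.965 times the control mean), had 109, 83.5 and 27.6 CPM in dTAG libraries and 112, 99.8 and 127 CPM in the controls. Hist2h3c1 and Hist2h3c2 share a 231-base upstream run but differed in level: Hist2h3c1 had 139, 125 and 44.7 CPM in dTAG replicates 1, 2 and 3 and 147, 113 and 129 CPM in the controls, while Hist2h3c2 had 100.3, 83.0 and 42.5 CPM in dTAG libraries and 107, 81.5 and 92.3 CPM in the controls. In both, dTAG replicates 1 and 2 lay within the controls and replicate 3 below them. The log2 fold change of Hist1h3b was -1.03 over 6 libraries (SE 1.01, edgeR adjusted p = 0.494) and -0.08 (SE 0.13) with dTAG replicate 1 alone. Median log2 ratios over H3 genes were 0.01, -0.25 and -2.73 in dTAG replicates 1, 2 and 3.

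H4 genes had the lowest median in dTAG replicate 2 and the least low one in dTAG replicate 3, with median log2 ratios to the control mean of 0.11, -0.57 and -2.46 in dTAG replicates 1, 2 and 3. Hist1h4d had 202, 146 and 14.9 CPM in dTAG replicates 1, 2 and 3 and 172, 171 and 193 CPM in the controls. Hist1h4h had 134, 87.3 and 12.1 CPM in dTAG libraries and 116, 120 and 121 CPM in the controls. Hist1h4a had 100.02, 56.8 and 22.1 CPM in dTAG libraries and 88.0, 80.2 and 96.4 CPM in the controls. In these 3 genes dTAG replicate 1 was the highest library and dTAG replicates 2 and 3 were below every control. Hist1h4n had 91.7, 60.0 and 15.4 CPM in dTAG replicates 1, 2 and 3 and 74.6, 85.6 and 94.8 CPM in the controls, with dTAG replicate 1 within the controls. The log2 fold change of Hist1h4d was -0.88 over 6 libraries (SE 1.05, edgeR adjusted p = 0.550) and 0.09 (SE 0.13) with dTAG replicate 1 alone.

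**Figure D2:**
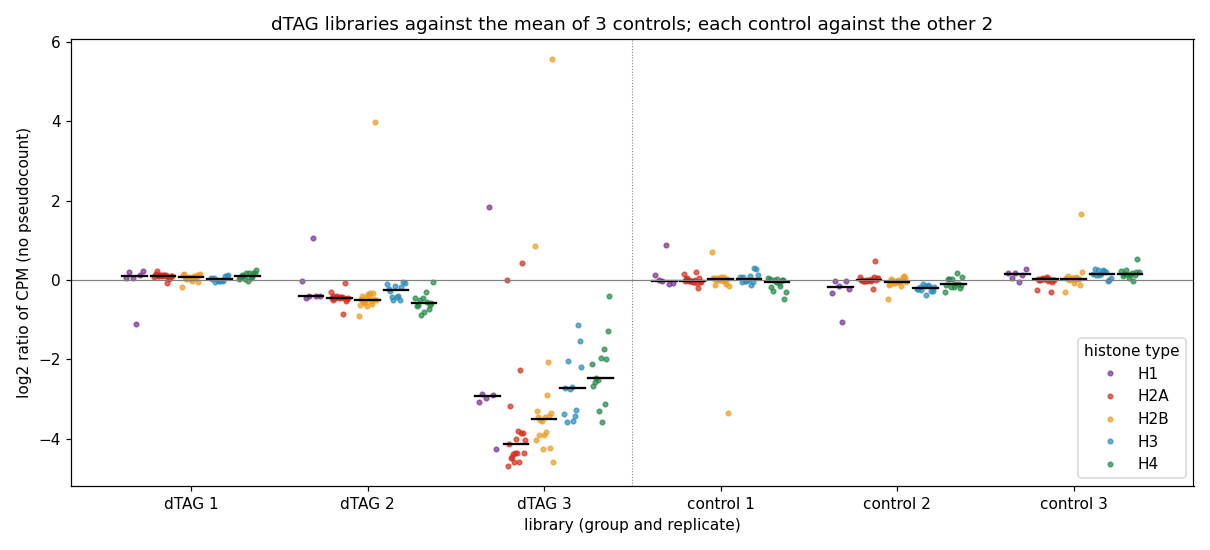
Log2 ratio of each gene's CPM to the control mean in dTAG replicates 1, 2 and 3, and of each control to the mean of the other 2 controls; points are genes, colours are histone types and black bars are medians per type. Type medians lie between 0.01 and 0.11 in dTAG replicate 1, between -0.57 and -0.25 in dTAG replicate 2 and between -4.13 and -2.46 in dTAG replicate 3.

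The genes outside the large cluster did not all run alike. Hist2h2ac had 705, 471 and 46.9 CPM in dTAG replicates 1, 2 and 3 and 701, 682 and 668 CPM in the controls. Hist2h2bb had 307, 196 and 11.6 CPM in dTAG libraries and 258, 272 and 302 CPM in the controls. Both ran as the main H2A and H2B genes did. Hist2h3b had 98.4, 85.4 and 19.9 CPM in dTAG replicates 1, 2 and 3 and 95.3, 83.0 and 92.7 CPM in the controls. Hist2h4 had 41.0, 24.4 and 14.9 CPM in dTAG libraries and 28.9, 34.4 and 45.8 CPM in the controls. Hist4h4, the lone gene of cluster 4, had 41.7, 33.3 and 26.5 CPM in dTAG libraries and 30.0, 36.1 and 38.3 CPM in the controls. It had one of the highest ratios of dTAG replicate 1 to the control mean (1.20), and its window holds GGTCCG.

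A few low genes were not below the controls in dTAG replicate 3 by CPM. Hist3h2a had 40.8, 31.4 and 39.2 CPM in dTAG replicates 1, 2 and 3 and 42.1, 40.6 and 34.6 CPM in the controls, so that replicates 1 and 3 lay within the controls. Hist2h2ab had 16.9, 15.9 and 22.6 CPM in dTAG libraries and 15.1, 20.6 and 14.5 CPM in the controls. Hist3h2ba had 7.75, 4.69 and 16 CPM in dTAG libraries and 11.9, 6.96 and 7.59 CPM in the controls. For Hist2h2ab and Hist3h2ba replicate 3 was the highest of all libraries in CPM. The direction depends on the scaling. The TMM-scaled fit of dTAG replicates 2 and 3 against the controls called each of these genes lower (edgeR). Log2 fold changes there were -1.53 for Hist3h2a (edgeR adjusted p = 0.00762), -1.22 for Hist2h2ab (0.0145) and -1.35 for Hist3h2ba (0.0374). Hist2h2be was nearly absent from the controls, with 7, 17 and 43 counts in dTAG replicates 1, 2 and 3 and 1, 8 and 13 counts in the controls, which are 0.542, 7.98 and 23.7 CPM in dTAG libraries and 0.0702, 0.511 and 0.923 CPM in the controls. It was the only member with an unadjusted p under 0.05 over 6 libraries (adjusted p = 0.192, edgeR), at a log2 fold change of 3.08 with an SE of 1.27, and with dTAG replicate 1 alone its log2 fold change was 0.01 (SE 2.15). The 2 libraries in which it was highest are those that also held counts in most olfactory receptor genes, and the part this has in its level was not tested.

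The testis genes Hist1h2ba and Hist1h2aa held counts in every library, but both overlap another RefSeq gene, so that the source of these counts cannot be told apart. Hist1h2ba, the testis H2B, had 65.1, 48.3 and 6.62 CPM in dTAG replicates 1, 2 and 3 and 68.4, 70.5 and 63.9 CPM in the controls. Hist1h2aa, the testis H2A that starts head to head with it 281 bases away, had 43.0, 25.3 and 9.38 CPM in dTAG libraries and 49.8, 40.8 and 46.3 CPM in the controls. Both lay within the controls in dTAG replicate 1 and below them in the other dTAG libraries. They were among the 3 lowest ratios of dTAG replicate 1 to the control mean of genes with at least 10 CPM, at 0.963 for Hist1h2ba and 0.943 for Hist1h2aa.

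**Figure D3:**
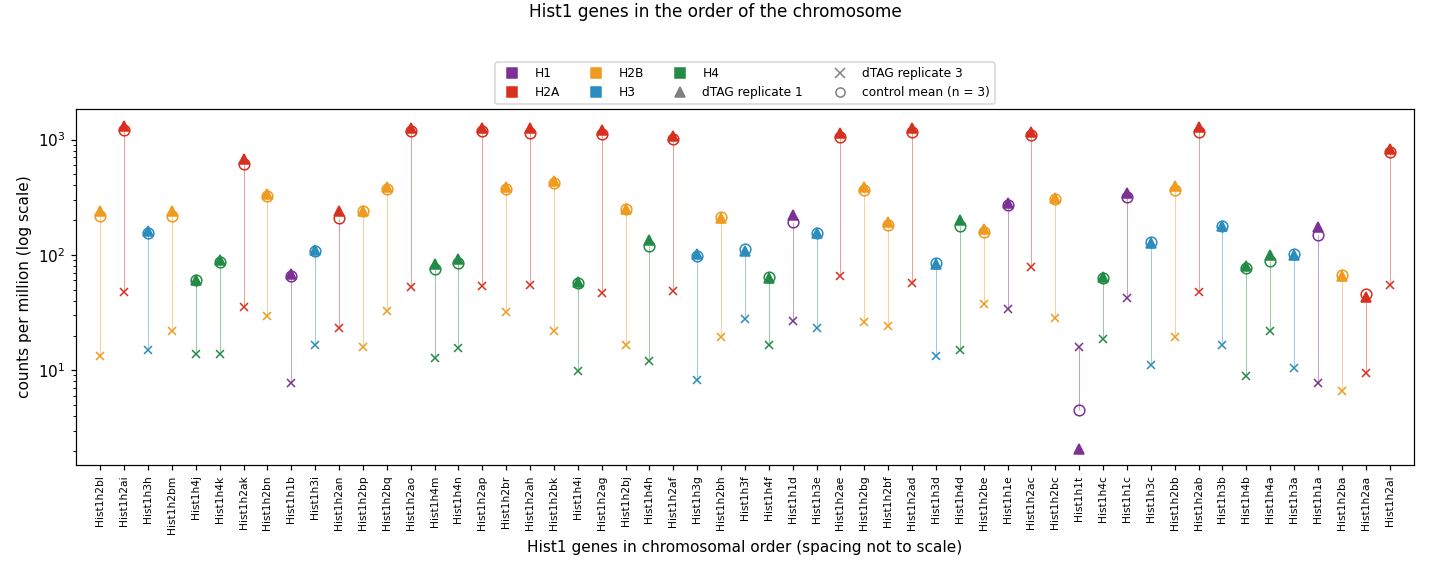
CPM (log scale) of the Hist1 genes along chromosome 13 in chromosomal order, spacing not to scale, with dTAG replicate 1 (triangles), dTAG replicate 3 (crosses) and the control mean of 3 libraries (circles), coloured by histone type. Triangles and circles nearly coincide along the cluster and crosses lie below them, with Hist1h1t the exception to both.

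Set per length, H2A genes had the highest median in all 3 dTAG libraries and in the controls. H2B genes had the second highest, though in dTAG replicate 3 the H2B and H4 medians were close (38.2 and 37.1). The order of H1, H3 and H4 differed in dTAG replicate 3. Lengths were the RefSeq spans of the 61 genes under 1000 bases (375 to 911 bases). This left out mostly H2B genes: 12 of 18 H2B and 18 of 19 H2A genes were kept, with all H1, H3 and H4 genes. The median level of H2A genes was 2252, 1531 and 99.1 CPM per kilobase in dTAG replicates 1, 2 and 3, against a median of 2106 for the control means. H2B genes followed at 525, 332 and 38.2 CPM per kilobase in the dTAG libraries and 501 in the controls, and H1 genes at 259, 167 and 27.9 in the dTAG libraries and 225 in the controls. H3 genes had 203, 168 and 30.5 CPM per kilobase in dTAG replicates 1, 2 and 3 and 198 in the controls, and H4 genes had 179, 113 and 37.1 in the dTAG libraries and 170 in the controls. H2A genes read several times higher per gene than the others, but a difference in mRNA level and a difference in how shared reads were counted cannot be told apart here. In dTAG replicate 3 the types lay close together: all 68 genes had 12 to 141 counts there, with a median of 40.5, beside a median of 42 counts over all rows with a symbol in that library.

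The makeup by type varied little among 5 libraries and stood apart in dTAG replicate 3. H1 genes held 4.23%, 4.35% and 7.09% of histone counts in dTAG replicates 1, 2 and 3, against 4.15% ± 0.194 in the controls (SD, n = 3). H3 genes held 5.70%, 6.72% and 13.1% in the dTAG libraries, against 5.99% ± 0.449 in the controls. For H4 the shares were 4.32%, 4.03% and 10.5% in the dTAG libraries, against 4.27% ± 0.198 in the controls. The H2A share of dTAG replicate 3 (48.4%, Wilson 95% interval 46.7% to 50.1%) was below every other library, and its H1, H2B, H3 and H4 shares were above. Without dTAG replicate 3 the difference of dTAG and control means changed sign for H2A (-6.28 percentage points with it, 0.107 without), H2B (0.659 with it, -0.375 without) and H4 (2.03 with it, -0.0901 without).

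**Figure D4:**
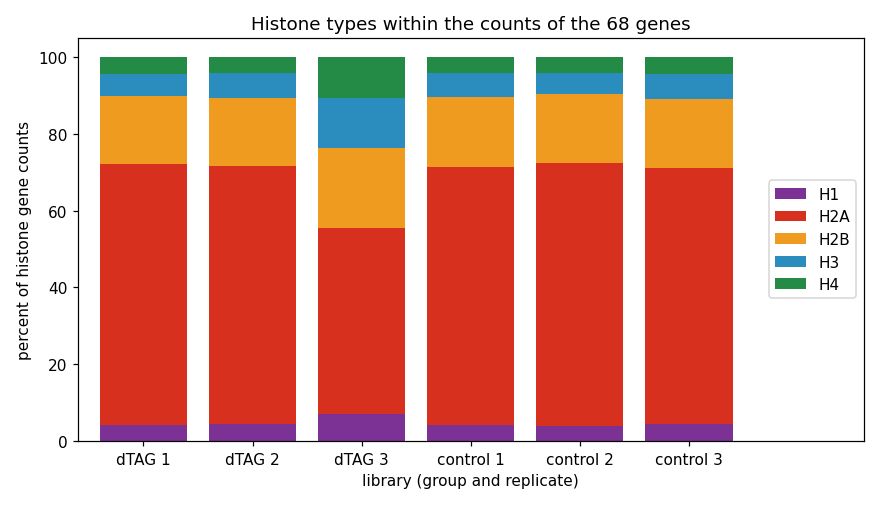
Percent of the counts of the 68 histone genes that fell in H1, H2A, H2B, H3 and H4 genes in each dTAG and control library, as stacked bars. H2A genes hold 67.9% and 67.2% in dTAG replicates 1 and 2 and 67.4% on average in the controls, but 48.4% in dTAG replicate 3.

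No histone gene passed the test between dTAG and control libraries. All 68 passed the filter on low counts and were tested among 18116 genes, and 0 were called at an adjusted p under 0.05 in either direction (edgeR), where 0% of all genes were called. At an unadjusted p under 0.05 there was 1 histone gene, against 4202 of all genes (23.2%). The median log2 fold change was -0.98 over the histone genes and 0.16 over all genes tested. With DESeq2, 17.7% of all genes were called (17.6% higher and 0.138% lower) but 0 histone genes (smallest adjusted p 0.0537), and with limma-voom 0 of either. The histone median was then -2.32 with limma-voom, beside 0.083 over all genes. No member had all 3 dTAG libraries outside all 3 controls in 1 direction, where 3.22% of all genes were below and 23.9% above in that way. A p that misses the threshold here does not show equal levels, since the dTAG libraries spread widely: SEs of the log2 fold change ran from 0.77 (Hist2h3c1) to 1.54 (Hist1h2ai) among the 4 most abundant genes of each type.

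dTAG replicate 1 could be set against the controls with the spread of the controls alone, on the assumption that a lone dTAG library varies like them. Of 18143 genes 16 were called (0.0882%; 0.0606% higher and 0.0276% lower, edgeR), and 0 of the 68 histone genes, with a smallest adjusted p of 0.973. At an unadjusted p under 0.05 there were 0 histone genes, against 5.74% of all genes. The median log2 fold change was -0.0022 over histone genes and -0.02 over all genes. Ranks were taken on CPM without TMM scaling, unlike the fold changes, and depend on that choice. By rank, 38 of 68 were above all 3 controls, where 34.2% of all genes were, and 1 was below, where 16.9% were. Of the polyadenylated S phase genes listed below, 10 of 18 were above and 0 below. In the other lists 3 of 12 (transcription), 5 of 17 (processing), 3 of 14 (export and decay) and 4 of 17 (chaperones) were above. The 38 comprised 16 H2A, 13 H2B, 5 H4, 3 H1 and 1 H3 gene. Among the controls, 43 members were higher in replicate 3 than in both others, and 40 were lower in replicate 2 than in both others. Shares over all genes were not taken for these counts, so they are not a result about the histone genes. Since copies may share reads, the 38 genes are not 38 separate observations.

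dTAG replicates 2 and 3 set against the controls gave another picture. In dTAG replicate 2, 59 members lay below all controls, and in dTAG replicate 3, 63 did, where 22.4% of all genes did so in each. The fit of dTAG replicates 2 and 3 against the controls called 59.8% of 22093 genes, 40.0% as higher and 19.8% as lower. Of the histone genes 20 were lower and 1, Hist2h2be, was higher; the lower ones were 11 of 13 H4 genes, 3 H3, 3 H2A and 3 H2B genes. Among them were Hist2h4 (log2 fold change -2.14, edgeR adjusted p = 0.00557), Hist1h2aa (-2.54, adjusted p = 0.00531), Hist1h4a (-2.28, adjusted p = 0.020) and Hist1h3f (-2.11, adjusted p = 0.0401). Abundant H2A genes such as Hist2h2aa1 had a change as large (-2.29) but did not pass (adjusted p = 0.297). The call rests on the 2 libraries that stand apart, and the share of their other counts in it was not tested.

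Other RNAs of high level were lower in dTAG replicate 3, and some of them in dTAG replicate 2. Relative to the control mean, the summed share of 83 cytosolic ribosomal protein genes was 1.05, 0.543 and 0.0573 in dTAG replicates 1, 2 and 3, and that of the mitochondrial ribosomal RNAs was 0.997, 0.709 and 0.0238. The histone genes lay near these, at 1.07, 0.735 and 0.0790. The stem cell markers were at 1.07, 0.642 and 0.207. The ribosomal RNA precursor Rn45s was at 0.856, 0.969 and 0.0428, so that it lay within the range of the controls in dTAG replicates 1 and 2 and far below it in dTAG replicate 3.

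The genes that act on histone genes and their mRNAs were compared in 5 lists chosen by role, of which no gene was called in either direction over 6 libraries or with dTAG replicate 1 as the only dTAG library (edgeR). The 12 transcription and locus factors had a summed share 1.01, 0.941 and 0.960 times the control mean in dTAG replicates 1, 2 and 3, and a median log2 fold change of -0.58, beside 0.16 over all genes. With dTAG replicate 1 as the only dTAG library the medians were -0.018 for these factors, -0.013 for 3′ end processing, 0.0087 for export, translation and decay, -0.066 for chaperones and 0.021 for S phase genes, beside -0.016 over all genes. Npat had 67.6, 53.5 and 52.4 CPM in dTAG replicates 1, 2 and 3 and 54.3, 62.3 and 55.5 CPM in the controls. Trrap, a scaffold of histone acetyltransferase complexes, had 178, 170 and 198 CPM in dTAG libraries and 191, 173 and 181 CPM in the controls. Gon4l had 185, 160 and 86.1 CPM in dTAG libraries and 168, 184 and 186 CPM in the controls. The sum near 1 in dTAG replicate 3 held members that lay on both sides of their control means, 5 above and 7 below. Over all genes tested, the median log2 CPM ratio to the control mean was 0.063, 0.69 and 1.73 in dTAG replicates 1, 2 and 3 (1 CPM added to each level). A sum near 1 in dTAG replicate 3 thus lay below the ratio of the typical gene. This background stands beside the CPM ratios of the other lists too. Yy1, a transcription factor, had 67.9, 94.3 and 141 CPM in dTAG replicates 1, 2 and 3 and 73.6, 64.6 and 59.0 CPM in the controls. Casp8ap2, a protein of the histone locus body, had 91.6, 76.0 and 49.1 CPM in dTAG libraries and 106, 124 and 114 CPM in the controls, with all 3 dTAG libraries below all controls. The direction of Yy1 depends on the scaling: CPM are per total counts, and after TMM scaling, which the fold changes use, 1 of the 12 genes lay above and 11 below their control means in dTAG replicate 3. Neither gene was called (edgeR adjusted p = 0.720 for Yy1 and 0.327 for Casp8ap2).

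The processing list stood lower in sum than the transcription factors in dTAG replicates 2 and 3, while the export, translation and decay list lay close to them. The 3′ end processing list (16 of 17 tested; Rnu7, the U7 RNA, was under the filter) had summed shares 1.02, 0.804 and 0.576 times the control mean in dTAG replicates 1, 2 and 3, with a median log2 fold change of -0.81. Slbp, the stem-loop binding protein, had 99.7, 59.1 and 11.04 CPM in dTAG replicates 1, 2 and 3 and 106, 70.7 and 87.4 CPM in the controls. Srrt, a partner of the cap-binding complex, had 162, 130 and 69.5 CPM in dTAG libraries and 162, 147 and 150 CPM in the controls, and Snrpb, a shared Sm protein, had 110, 74.6 and 16 CPM in dTAG libraries and 134, 130 and 126 CPM in the controls. In dTAG replicate 1 Slbp lay within and Snrpb below the controls. The 14 genes of export, translation and decay had summed shares of 1.03, 0.958 and 0.952 and a median log2 fold change of -0.60. In dTAG replicate 3, 8 of them lay above and 6 below their control means in CPM, and 1 above and 13 below after TMM scaling. Dcp2, which removes caps, had 184, 140 and 58.5 CPM in dTAG replicates 1, 2 and 3 and 187, 162 and 169 CPM in the controls. Xrn2, a nuclear exonuclease, had 152, 125 and 59.6 CPM in dTAG libraries and 170, 160 and 145 CPM in the controls. Both were lowest in dTAG replicate 3. Upf1, a helicase of mRNA decay, ran the other way in CPM but not in the TMM-scaled fit (log2 fold change -0.23), with 115, 138 and 238.4 CPM in dTAG libraries and 126, 97.6 and 100.5 CPM in the controls. Ctif, a translation factor of capped mRNAs, was higher on both scales (log2 fold change 1.60, edgeR adjusted p = 0.152), with 8.37, 35.7 and 121 CPM in dTAG libraries and 6.74, 5.62 and 10.6 CPM in the controls.

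Summed over each list, chaperones of new histones and polyadenylated S phase genes were also lower in dTAG replicates 2 and 3, and the single members varied in direction. The 17 chaperone and import genes had summed shares of 1.01, 0.743 and 0.273 times the control mean in dTAG replicates 1, 2 and 3 (median log2 fold change -0.83), and the 18 S phase genes 1.07, 0.747 and 0.409 (median log2 fold change -0.80). Nasp, a chaperone of H3 and H4, had 694, 503 and 71.2 CPM in dTAG replicates 1, 2 and 3 and 684, 623 and 661 CPM in the controls. Nap1l1, a chaperone of H2A and H2B, had 548, 369 and 51.3 CPM in dTAG libraries and 594, 533 and 534 CPM in the controls. Mcm3, a subunit of the replicative helicase, had 289, 175 and 33.1 CPM in dTAG libraries and 302, 269 and 300.2 CPM in the controls, and Lig1, the ligase that joins newly copied strands, had 263, 180 and 49.1 CPM in dTAG libraries and 248, 251 and 235 CPM in the controls. All 4 lay within or near the controls in dTAG replicate 1 and below them in the other dTAG libraries. In dTAG replicate 3, 13 of 17 chaperone genes and 13 of 18 S phase genes lay below their control means in CPM. Among those above were Tonsl, a chaperone of new H3 and H4, with 29.7, 41.8 and 103 CPM in dTAG replicates 1, 2 and 3 and 33.5, 29.1 and 32.2 CPM in the controls, and Cdt1, which licenses replication origins, with 42.6, 52.5 and 92.7 CPM in dTAG libraries and 45, 42.1 and 46.1 CPM in the controls. After TMM scaling 2 of 17 chaperone genes and 0 of 18 S phase genes lay above their control means in dTAG replicate 3. For reference, H2afz itself had 107, 56.3 and 35.9 CPM in dTAG replicates 1, 2 and 3 and 78.8, 81.9 and 95.7 CPM in the controls; dTAG acts on the protein, so the transcript does not check the depletion.

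**Figure D5:**
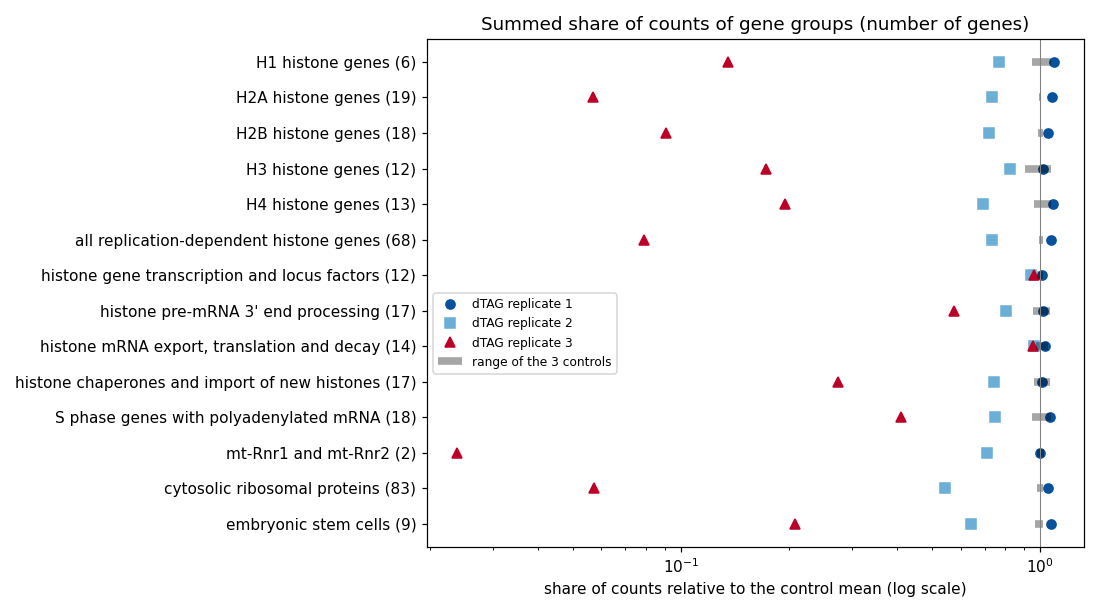
Summed share of counts of each gene group relative to its control mean (log scale) in dTAG replicates 1, 2 and 3, with the range of the 3 controls as a grey bar; the number of genes is in parentheses. dTAG replicate 1 lies near 1 in every group, while in dTAG replicate 3 the H2A histone genes (0.0567) and ribosomal protein genes (0.0573) lie far lower than the transcription and locus factors (0.960).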

How the data were processed

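Counts per gene for 6 RNA-seq libraries were deposited by the authors as whole numbers, not normalized, in a single table. The labels' protocols speak of column-purified RNA, added ERCC spike-ins and stranded libraries depleted of ribosomal RNA, yet name a kit for messenger RNA; this bears on mRNAs without a poly(A) tail. The submitters' processing notes list build mm10 with featureCounts, STAR 2.7.2b, limma and edgeR; settings and annotation were not stated there. The other 83 of 89 samples are not analysed here.

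The 903 rows without a symbol (2.33%, 6.67% and 14.6% of counts in dTAG replicates 1, 2 and 3, 2.20% to 2.37% in controls) were left out. CPM are per 1000000 remaining counts. A count of 0 allows 3 counts, or 0.232, 1.41 and 1.66 CPM in dTAG replicates 1, 2 and 3 and 0.192 to 0.213 CPM in controls. The test was the two-sided quasi-likelihood test of edgeR 4.0.16 (glmQLFit and glmQLFTest in R 4.3.3), on group alone. It followed TMM scaling and filterByExpr (minimum count 10, minimum total 15), with Benjamini-Hochberg adjustment over all genes at 0.05. The test itself gives no SE. Each SE was derived as the absolute log2 fold change over the square root of the test's F statistic, and is approximate. The code was also run on simulated counts, drawn from the control profile with far less spread than the fitted common dispersion of 0.424. That run does not show how the test performs on libraries that spread as these do. TMM factors were 0.789, 1.23 and 2.31 in dTAG replicates 1, 2 and 3 and 0.742 to 0.805 in controls. Alternatives were RLE scaling, library totals, other filters, DESeq2 1.42.0, limma-voom 3.58.1, a replicate block, an adjusted p under 0.01, other denominators and left-out libraries. All 68 symbols matched RefSeq genes (GRCm38.p6), one of them, Hist1h2ap, as the remaining unmatched gene; sequences are RefSeq's.

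Genes named are the 4 most abundant of each type, all outside cluster 1, the 3 highest and 3 lowest ratios of dTAG replicate 1 to the control mean at 10 CPM or more, the testis genes, and the 2 most abundant per pathway list. H2afz was named as the gene of the depleted protein. Npat, Slbp, Rnu7, Hist1h2ao, Hist1h2al, Hist1h2be and Hist1h4m were named outside this rule. Yy1, Casp8ap2, Upf1, Ctif, Tonsl and Cdt1 were named after their values were seen. The members and lists were chosen with earlier results of these data known.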

Additional observations from a re-analysis of the deposited data

How the results depend on the processing

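With dTAG replicate 1 as the only dTAG library, 11 genes were called higher and 5 lower, the histone median less that of all genes turned to 0.014, and the share of counts turned to 0.167 percentage points above the controls. Within the histone counts, the difference in this setting was 0.473 for H2A, -0.321 for H2B and -0.289 percentage points for H3. The log2 fold changes that turned positive were 0.033 (Hist1h1c), 0.11 (Hist1h1d), 0.13 (Hist1h1a), 0.0062 (Hist2h2aa1), 0.0071 (Hist2h2aa2), 0.036 (Hist1h2ai), 0.015 (Hist1h2ap), 0.033 (Hist1h2bb), 0.023 (Hist2h3c1), 0.094 (Hist1h4d), 0.090 (Hist1h4h), 0.10 (Hist1h4a), 0.023 (Hist1h4n), 0.020 (Hist2h3c2), 0.086 (Hist2h4), 0.042 (Hist2h3b), 0.060 (Hist2h2bb), 0.17 (Hist4h4) and 0.13 (Hist1h2an). The other 16 named genes did not change direction there.

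Leaving out 1 library at a time gave 0 to 8839 genes called higher, 0 to 4383 lower, 0 to 1 histone genes higher and 0 to 20 lower, with each highest count without dTAG replicate 1. The histone median less that of all genes ran from -2.93 (without dTAG replicate 1) to -0.50 (without dTAG replicate 3), and the difference in share of counts from -1.42 to -0.235 percentage points. Differences of type shares ran from 0.139 to 1.57 for H1, -9.65 to 0.107 for H2A, -0.375 to 1.20 for H2B, 0.220 to 3.92 for H3 and -0.0901 to 3.17 for H4. The log2 fold change of Hist1h1t ran from -0.51 to 0.053.

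Without a filter on low counts 1398 genes were called higher. DESeq2 called 3181 higher and 25 lower. With library totals alone the median log2 fold change of all genes was 1.11 in place of 0.16 and that of the histone genes -0.66 in place of -0.98; the log2 fold change was then 0.10 for Hist3h2ba, 0.14 for Hist2h2ab and 1.00 for Hist1h1t, and with a filter of 1 CPM that of Hist1h1t was 0.12. The cause was not tested. In these 4 settings 0 histone genes were called. Without H2A and H2B genes, a setting chosen after seeing the data, the difference in share of counts was -0.116 percentage points.

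The replicate numbers were not found to pair the libraries (correlations of deviations 0.0524, -0.0166 and 0.0250; 2 of 6 libraries correlated best with their own number). With the replicate block 13 genes were called, all higher, and 0 histone genes, and the histone median less that of all genes was -1.93 in place of -1.14. It was -2.40 with limma-voom, -2.04 without a filter on low counts and -1.77 with library totals. Depth limits dTAG replicates 2 and 3, where a count of 0 allows 1.41 and 1.66 CPM.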
